A study of Mus musculus with 6 samples.

Results

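The mitosis and kinetochore genes described here are 45 genes that drive a cell from late G2 through division. They were taken from the table by gene symbol, with no threshold on a measured value, although the list was drawn up with earlier results of these data known. All 45 were among the 13595 genes of the deposited expression table. All 45 also passed the filter on low values, a normalized read count of at least 1 in at least 3 libraries, which 12568 genes passed. They comprise mitotic cyclins with CDK1, mitotic kinases, checkpoint and anaphase regulators, kinetochore and centromere proteins, the chromosomal passenger complex, spindle motors, cytokinesis factors and condensin subunits, together with Foxm1, Top2a and Mki67.

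The table covers 6 poly(A) RNA sequencing libraries, made from CD31-positive cells of mouse liver in primary culture. CD31 (Pecam1) is an endothelial surface protein. The comparison was between 3 libraries labelled male and 3 labelled female, numbered 4, 5 and 6 in each sex, from C57BL6/J mice 4 weeks old. Every library had the same exposure: 100 µM indoxyl sulfate, a tryptophan-derived solute that activates the aryl hydrocarbon receptor, with hypoxia and nutrient deprivation for 6 h. The DMSO control cells that the study design mentions were not analysed here, so the values speak of sex within the exposure and not of the exposure itself. The labels do not state whether the numbered replicates were separate mice, isolations or wells, so the p-values measure only the spread between these libraries, which may be technical.

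Entry into mitosis depends on CDK1 bound to cyclin A or cyclin B, and Polo-like and Aurora kinases then build the spindle. Kinetochores attach chromosomes to microtubules while the spindle checkpoint holds back the anaphase-promoting complex until every chromosome is attached. Many of these genes are silent in resting cells and are transcribed late in the cycle through the MuvB complex with B-MYB and FOXM1, so their RNA is commonly read as a mark of dividing cells.

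Recovered reads were 27811890, 28530368 and 31189363 in the male libraries and 25329421, 23985846 and 22303270 in the female libraries, and a member had between 347 and 14097 reads in a library. Xist was at 0.124 to 0.458 in the libraries labelled male and 234 to 324 in those labelled female, but the Y-linked Ddx3y was at 50.2, 48.5 and 57.7 in the libraries labelled female beside 47.2, 76.3 and 47.4 in those labelled male. The Y-linked Eif2s3y and Kdm5d were also present in the libraries labelled female but were lower there, at means of 29.8 against 58.1 (log2 fold change -0.94) and 19.1 against 34.8 (-0.83), while Uty was at 22.2, 22.4 and 27.7 against 25.1, 32.0 and 23.7 and was not called. Y-linked RNA in the libraries labelled female goes against that label, and sex is used here as labelled. Pecam1 was at 405, 391 and 423 in the male libraries and at 73.5, 73.8 and 74.5 in the female libraries. Of 13 tested endothelial markers 11 were lower and 1 was higher, with a summed level of 2388 to 2507 against 1220 to 1275. Sinusoidal endothelial markers summed to 492 to 531 against 11.3 to 13.1, with 2 lower and 1 higher of 3 tested, and most of the male sum was Lyve1 (means of 498 and 4.98), while F8 was higher (1.79 and 3.77). Stellate, mural and fibroblast markers summed to 2896 to 3729 against 3504 to 4208, with 4 higher and 9 lower of 13 tested. That sum joined opposite moves: Acta2 was at 134, 56.4 and 45.9 against 1887, 1682 and 1513 and Tagln also rose, whereas Col3a1 and Pdgfrb fell to 17.9% and 10.8% of their male means. Mesothelial markers were at 17.7 to 21.3 against 361 to 401, with 4 of 4 tested higher, and cholangiocyte markers at 1648 to 2496 against 513 to 615, with 5 of 6 tested lower and 1 higher. Macrophage markers were at 7.51 to 10.1 against 13.2 to 15.8 with Emr1 at 0 in every library, and hepatocyte markers were at 0.953 to 1.22 against 0.221 to 0.415. These marker levels moved with sex, and their part in the results on mitotic genes was not tested. In bulk RNA, fewer cells of a type and less RNA per cell cannot be told apart.

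The mitotic genes did not move as 1 block between the sexes. In limma's test, at an adjusted p under 0.05 over all genes tested, 23 of the 45 were lower and 11 were higher in the libraries labelled female, and 11 were not called. Among all genes tested, 34.6% were lower and 34.6% were higher, and 69.3% were called in either direction. Without female replicate 6 the higher members numbered 7, and with a trend on coding length and GC content removed, as described further on, they numbered 4. Removing that trend also takes away any difference between the sexes that goes with length or GC content. The members' median log2 fold change, female minus male on the log2(value + 1) scale, was -0.23, against 0.01 over all genes tested. Most differences were small, with a median absolute log2 fold change of 0.37 against 0.46 over all genes. Only Ncaph, Mki67 and Cenpe were called with a log2 fold change of at least 1 in size, 6.67% of the members against 20.6% of all genes tested. The male and female libraries did not overlap for 35 of the 45 members, and 74.1% of all genes tested had groups that did not overlap.

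**Figure D1:**
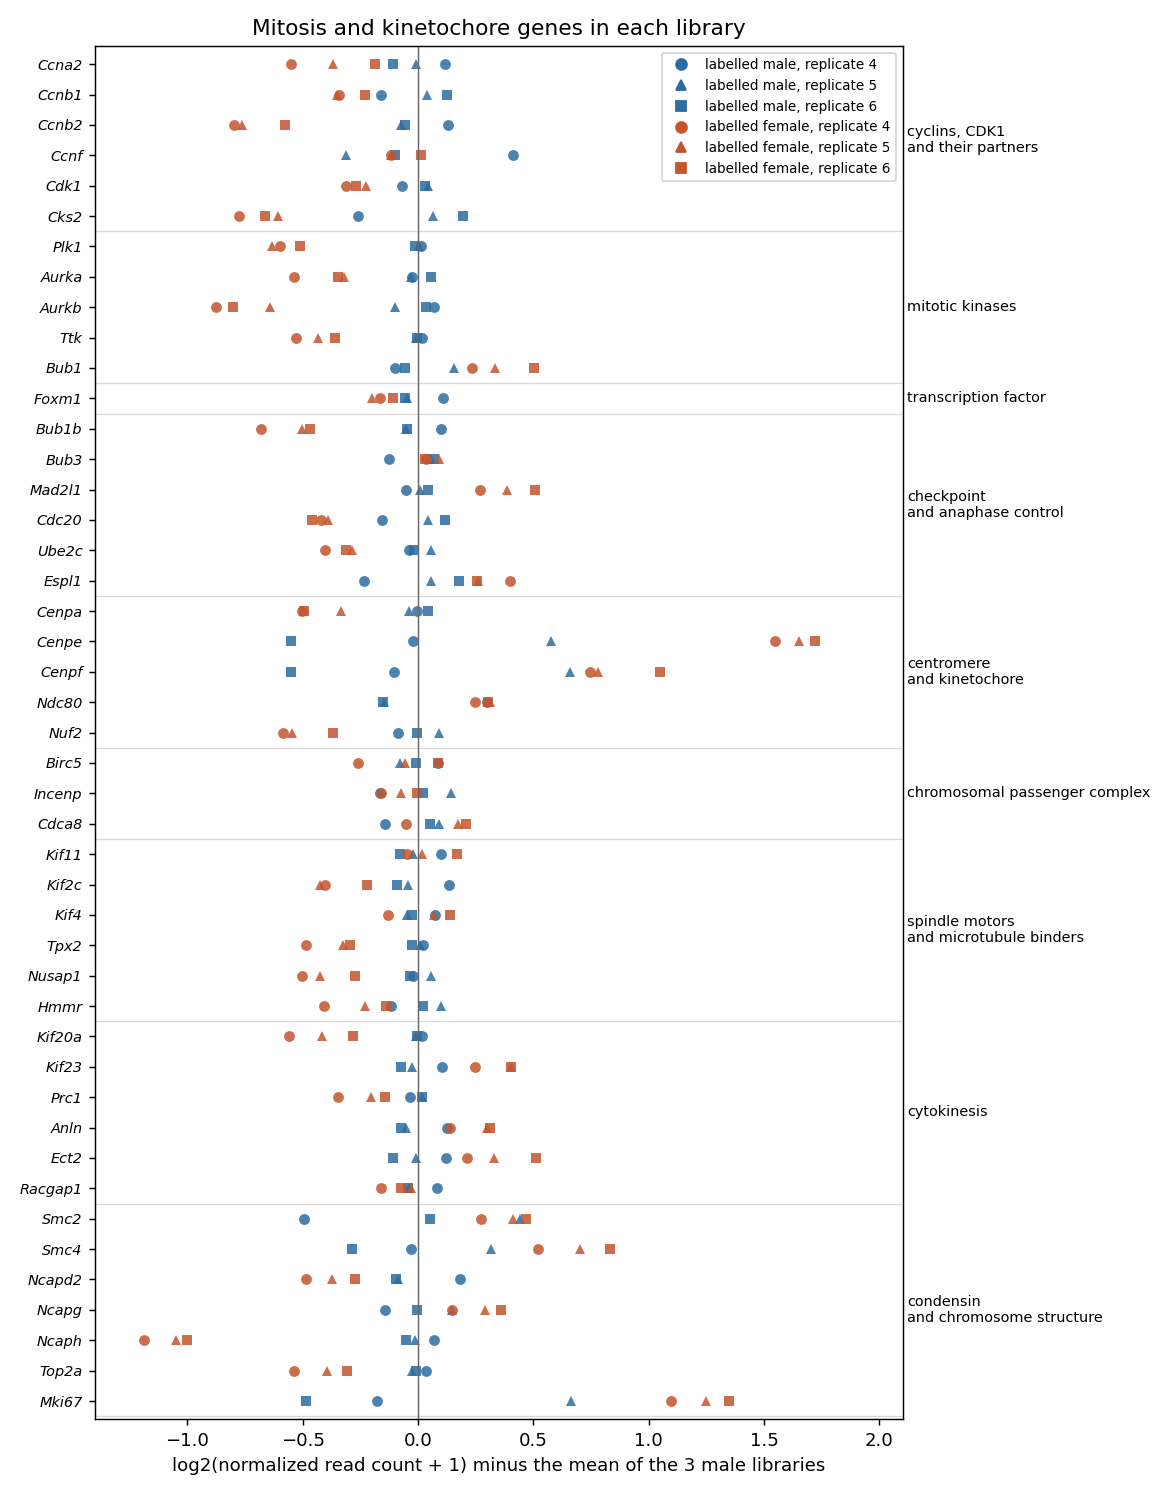
Level of each mitosis and kinetochore gene in each library, as log2(normalized read count + 1) minus the mean of the 3 male libraries, ordered by role. Circles, triangles and squares are replicates 4, 5 and 6, blue for male and orange for female; most genes lie left of 0 in all 3 female libraries, while Cenpe, Cenpf, Mki67 and Smc4 lie far to the right and are spread widely among the male libraries.

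**Figure D2:**
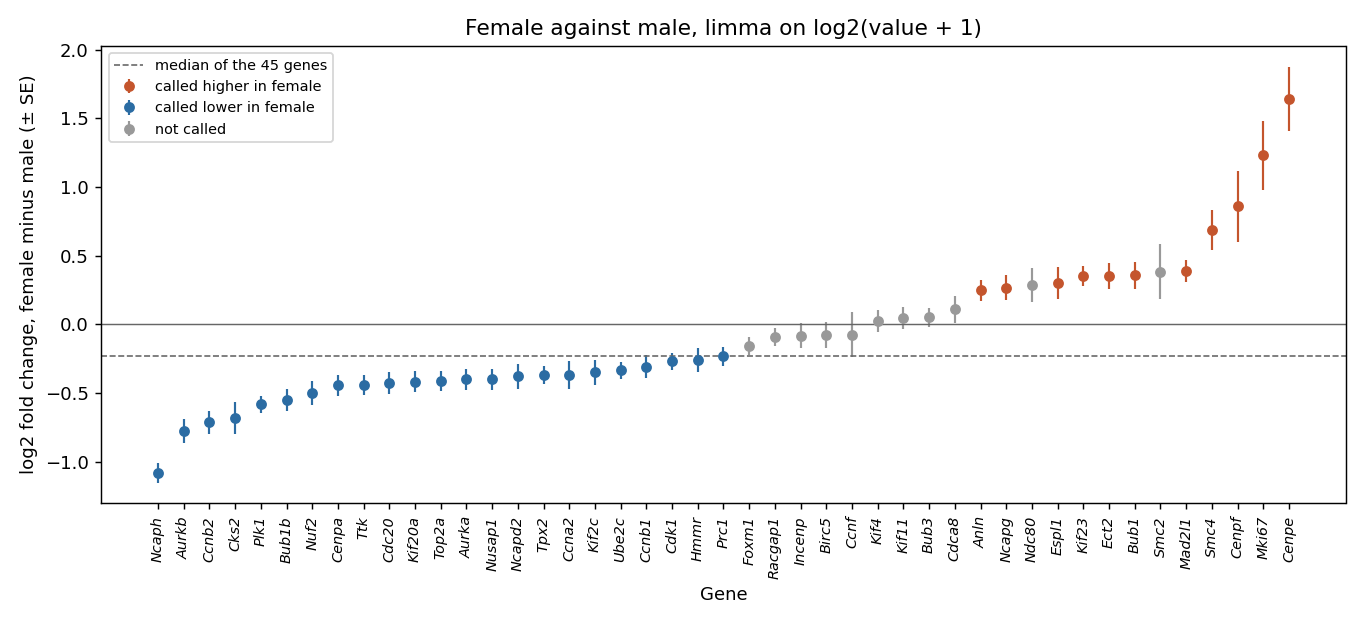
Log2 fold change of the 45 genes, female minus male, with bars for the standard error of the limma fit (3 libraries per sex). The values run from -1.08 for Ncaph to 1.64 for Cenpe, with 23 genes called lower, 11 called higher and the dashed line at the median of -0.23.

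The authors' deposited table holds their own comparison of the same libraries. At a false discovery rate under 0.05, 25.8% of its 13595 genes were called, and among the members 1 was called higher and 1 lower. The authors' deposited table gives Cenpe a fold change of 3.0 (false discovery rate 0.0253) and Ncaph a fold change of -2.14 (false discovery rate 0.0249). Its fold changes had the same sign as the limma fit for 45 of 45 members.

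The proximal promoters of these genes share 2 letter patterns that are well known in late cell cycle genes. TTTGAA is the common form of the cell cycle genes homology region, which the MuvB complex contacts, and CCAAT is the letter core bound by NF-Y. Promoters of 38 members were found among the RefSeq windows of build GRCm38.p6, which span 250 bases before to 50 bases after the transcription start. These members had 41 windows, since 3 of them had more than 1, and a gene is counted below if any of its windows held the pattern. Searched on both strands, TTTGAA occurred in 29 of these 38 genes (76.3%), against 13.9% of 9450 tested genes with a promoter. CCAAT occurred in 30 of 38 (78.9%), against 43% of those tested genes, and the variant TTTAAA in 9 of 38 (23.7%), against 10.9%. A TTTGAA or TTTAAA together with CCAAT in the same window was found for 28 of 38 (73.7%), against 9.06% of the tested genes. The patterns were not particular to the members. Of 73 further mitosis genes with a promoter, from a list described below, 35 had TTTGAA, 44 had CCAAT and 28 had TTTGAA or TTTAAA together with CCAAT. Counted by window, TTTGAA was in 32 of 41 (78%) and CCAAT in 33 of 41 (80.5%), against 17.9% and 37.4% of all 32851 windows of the same length. By direction, TTTGAA was present for 14 of 19 members that fell, 7 of 10 that rose and 8 of 9 that were not called. A match is a description of letters and not of a binding site.

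The following windows are shown for members whose results are given below: 4 genes that were lower in the female libraries and carry both patterns, then Ncaph, which had the largest decrease, then the 3 genes with the largest increases. Each runs 5′ to 3′ on the gene's strand from 150 bases before the start through its first 20 transcribed bases, in RefSeq coordinates of GRCm38.p6. Capitals mark the 3 patterns on either strand. Read from the other strand, the first pattern appears as TTCAAA, whereas CCAAT then appears as ATTGG, and the variant reads the same both ways.
Ccnb2 (chr9:70421535-70421704, minus strand): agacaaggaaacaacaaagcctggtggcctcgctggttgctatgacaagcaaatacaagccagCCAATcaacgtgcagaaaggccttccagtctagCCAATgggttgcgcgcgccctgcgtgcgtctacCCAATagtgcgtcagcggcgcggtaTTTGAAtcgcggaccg
Cdc20 (chr4:118437324-118437493, minus strand): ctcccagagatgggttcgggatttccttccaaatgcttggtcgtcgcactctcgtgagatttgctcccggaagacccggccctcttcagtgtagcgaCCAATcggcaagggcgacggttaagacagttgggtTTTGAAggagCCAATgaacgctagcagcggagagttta
Cdk1 (chr10:69352893-69353062, minus strand): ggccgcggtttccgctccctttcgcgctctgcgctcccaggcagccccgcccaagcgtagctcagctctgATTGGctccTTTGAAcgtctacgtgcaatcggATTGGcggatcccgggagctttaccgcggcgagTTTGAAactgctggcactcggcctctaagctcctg
Top2a (chr11:99024170-99024339, minus strand): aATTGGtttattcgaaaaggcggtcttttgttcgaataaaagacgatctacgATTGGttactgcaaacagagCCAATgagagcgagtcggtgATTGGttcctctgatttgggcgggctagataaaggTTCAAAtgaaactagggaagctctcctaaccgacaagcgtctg
Ncaph (chr2:127133935-127134104, minus strand): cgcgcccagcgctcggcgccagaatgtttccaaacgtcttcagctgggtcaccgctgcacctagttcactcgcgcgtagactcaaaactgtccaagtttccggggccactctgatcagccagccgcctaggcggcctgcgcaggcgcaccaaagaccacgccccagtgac
Cenpe (chr3:135212413-135212582, plus strand): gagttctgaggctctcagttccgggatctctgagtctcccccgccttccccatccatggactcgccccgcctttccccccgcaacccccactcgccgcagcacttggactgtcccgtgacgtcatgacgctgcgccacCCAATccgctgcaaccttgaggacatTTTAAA
Cenpf (chr1:189688067-189688236, minus strand): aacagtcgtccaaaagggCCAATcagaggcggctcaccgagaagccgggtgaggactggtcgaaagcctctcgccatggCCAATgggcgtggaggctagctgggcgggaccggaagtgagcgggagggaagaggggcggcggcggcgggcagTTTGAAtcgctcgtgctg
Mki67 (chr7:135716360-135716529, minus strand): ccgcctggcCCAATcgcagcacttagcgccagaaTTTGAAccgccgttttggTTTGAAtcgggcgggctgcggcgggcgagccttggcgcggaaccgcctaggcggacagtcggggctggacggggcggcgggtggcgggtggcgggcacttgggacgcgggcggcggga
In the windows as printed, Ncaph had no match to any of the 3 patterns, and no match says only that these letters are absent from the stretch. Cenpe carried TTTAAA and CCAAT but not TTTGAA.

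Most of the cyclin and CDK1 genes were lower in the libraries labelled female. Of 6 genes of this group 5 (83.3%) fell and 0 rose in limma's test, against 34.6% each way over all genes tested, and 0 were higher at an unadjusted p under 0.05, by edgeR or by DESeq2. Ccnb2, a cyclin B that activates CDK1, was at 97.0, 84.3 and 85.3 in male replicates 4, 5 and 6 and at 50.5, 51.9 and 59.1 in female replicates 4, 5 and 6. The highest female library lay below the lowest male library, and the log2 fold change was -0.71 (limma adjusted p = 0.000114, SE 0.09). Cks2, a small CDK-binding subunit, was at 42.7, 53.8 and 58.9 against 29.5, 33.4 and 32.1, a log2 fold change of -0.68 (limma adjusted p = 0.000949, SE 0.12). Again the groups were apart, although male replicate 4 was well below the other male libraries.

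Ccnb1, the other mitotic cyclin B measured, was at 75.6, 86.7 and 92.2 in the male libraries and 66.4, 66.1 and 71.9 in the female libraries, so the groups were apart by little. The change of -0.31 (SE 0.08) had a limma adjusted p of 0.0104. Ccna2, cyclin A, was at 144, 133 and 124 against 90.6, 103 and 117, a change of -0.37 (limma adjusted p = 0.0105, SE 0.10). Cdk1, the kinase itself, was at 76.9, 83.2 and 82.5 against 64.8, 68.9 and 66.8, and the female mean was 82.7% of the male mean (log2 fold change -0.27, limma adjusted p = 0.00448, SE 0.06). Every female library lay below every male library for all 5 of these genes. Ccnf, the F-box protein cyclin F, was the exception: male replicate 4 stood at 35.6 and male replicates 5 and 6 at 21.2 and 24.7, around female values of 24.4, 24.4 and 26.8. Its log2 fold change of -0.07 (SE 0.17) became 0.13 without male replicate 4, and neither value was called.

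Of the 5 mitotic kinases, 4 (80%) fell and 1 (20%) rose, against 34.6% each way over all genes tested. Aurkb, the catalytic subunit of the chromosomal passenger complex, was at 55.2, 49.1 and 53.9 in the male libraries and 28.2, 33.3 and 29.7 in the female libraries. Female levels averaged 57.7% of male levels with no overlap (log2 fold change -0.77, limma adjusted p = 6.76e-05, SE 0.09). Plk1, the Polo-like kinase of mitotic entry and spindle assembly, was nearly level within each sex, at 76.4, 75.9 and 75.0 against 49.8, 48.4 and 52.8. Its difference of -0.58 (limma adjusted p = 5.28e-05, SE 0.06) was thus many times the spread between libraries. Aurka, the centrosomal Aurora kinase, fell by 0.40 on the log2 scale (limma adjusted p = 0.00192), and Ttk, the MPS1 kinase of the spindle checkpoint, fell by 0.44 (limma adjusted p = 0.000784). Bub1, another checkpoint kinase, went the other way, at 49.1, 58.8 and 50.6 against 62.1, 66.6 and 75.0 (log2 fold change 0.36, limma adjusted p = 0.00984, SE 0.10). With the coding length and GC trend removed, Bub1 was at 0.07 and was not called (limma adjusted p = 0.465).

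Foxm1, the transcription factor that activates many G2 and mitotic genes, was at 87.5, 78.4 and 78.1 in the male libraries and 72.4, 70.5 and 75.2 in the female libraries. The libraries did not overlap, but the difference of -0.16 (SE 0.07) missed the threshold with a limma adjusted p of 0.0656. With the coding length and GC trend removed it was -0.04 (limma adjusted p = 0.586).

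Checkpoint and anaphase genes divided, with 3 of 6 lower (50%), 2 higher (33.3%) and 1 not called, against 34.6% each way over all genes tested. Bub1b, the checkpoint protein BUBR1, was at 86.2, 77.4 and 77.6 in the male libraries and 49.7, 56.4 and 57.7 in the female libraries. Its female mean was 67.9% of the male mean (log2 fold change -0.55, limma adjusted p = 0.000346, SE 0.08), and the groups were far apart. Cdc20, the activator of the anaphase-promoting complex that the checkpoint restrains, was at 72.9, 83.9 and 88.3 against 60.5, 61.9 and 59.0. Male replicate 4 was the lowest male library and still lay above all female libraries, and the change was -0.42 (limma adjusted p = 0.00154, SE 0.08). Ube2c, the ubiquitin-conjugating enzyme of the same complex, fell by 0.33 (limma adjusted p = 0.00162).

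Mad2l1, the checkpoint protein MAD2 that binds CDC20, rose from 32.6, 34.0 and 34.9 to 40.9, 44.5 and 48.5 (log2 fold change 0.39, limma adjusted p = 0.00268, SE 0.08). Thus genes for partners in the same checkpoint complex, Mad2l1 on one side and Bub1b and Cdc20 on the other, were called in opposite directions. With the coding length and GC trend removed Mad2l1 was at 0.15 and was not called (limma adjusted p = 0.0943), so the opposite calls did not hold there. Espl1, separase, was at 14.4, 17.8 and 19.5 against 22.8, 20.6 and 20.6. Its increase of 0.30 (limma adjusted p = 0.046) was close to the threshold and was lost in 5 of the 6 fits without 1 library, with 0.19 without male replicate 4, 0.26 without female replicate 4 and 0.33 without male replicate 5, female replicate 5 or female replicate 6. Espl1 was also not called with no filter, with the replicate block (limma adjusted p = 0.079), by edgeR or by DESeq2, or with the trend removed (0.24). Bub3, a partner of both BUB kinases, was at 80.6 ± 6.03 (SD, n = 3) and 83.5 ± 2.06 and was not called, with 0.05 in all libraries and -0.01 without male replicate 4.

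Kinetochore genes held both the largest increase of the set and clear decreases. Cenpe, a kinesin that carries chromosomes along spindle microtubules, was at 58.1, 88.5 and 40.1 in the male libraries and 175, 188 and 197 in the female libraries. The female mean was 300.0% of the male mean, and the lowest female library lay well above the highest male library (log2 fold change 1.64, limma adjusted p = 0.000322, SE 0.23). Cenpf, a large outer kinetochore protein, was at 59.4, 101 and 43.3 against 108, 111 and 134. Male replicate 5 nearly reached the female range, and the difference of 0.86 (SE 0.26) had a limma adjusted p of 0.0172. It was not called without female replicate 6, at 0.76 (limma adjusted p = 0.067), nor with the coding length and GC trend removed, at 0.36 (limma adjusted p = 0.229).

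Cenpa, the histone H3 variant that marks the centromere, was at 33.2, 32.4 and 34.4 in the male libraries and 23.2, 26.3 and 23.4 in the female libraries, with no overlap. Its log2 fold change was -0.44 (limma adjusted p = 0.00109, SE 0.08). Nuf2 and Ndc80 encode paired subunits of the complex that binds microtubules at the outer kinetochore. Nuf2 fell from 45.8, 52.0 and 48.4 to 32.1, 33.0 and 37.5 (log2 fold change -0.50, limma adjusted p = 0.00085, SE 0.08). Ndc80 was at 35.8, 26.0 and 25.9 against 34.5, 36.2 and 35.9. Male replicate 4 alone was at the female level, and the difference of 0.29 (limma adjusted p = 0.0649) became 0.44 and was called without that library, as was a value of 0.35 with quantile scaling. With the coding length and GC trend removed Ndc80 was at 0.18 and was not called (limma adjusted p = 0.184).

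Of the other 3 chromosomal passenger genes, 0 were called by limma, 0 had an unadjusted p under 0.05, and 0 were called by edgeR or DESeq2, whereas limma called 69.3% of all genes tested. Birc5, survivin, was at 49.2, 43.7 and 46.0 in the male libraries and 38.5, 44.4 and 49.2 in the female libraries, with wide overlap (log2 fold change -0.08, limma adjusted p = 0.499, SE 0.10; 0.01 without female replicate 4). Incenp, the scaffold of the complex, was at 72.0 ± 7.70 against 67.8 ± 3.70 (SD, n = 3), and was called lower, at -0.16, only without male replicate 4. Cdca8, borealin, was at 29.7 ± 2.61 against 32.1 ± 3.14. Aurkb, their kinase partner, was the only gene of the complex that fell.

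Among spindle genes, 4 of 6 (66.7%) fell and 0 rose in limma's test, against 34.6% each way over all genes tested, and 0 were higher at an unadjusted p under 0.05, by edgeR or by DESeq2. Tpx2, which activates Aurora A on the spindle, was at 199.9, 198.1 and 194 in the male libraries and 140.4, 157 and 160.4 in the female libraries. Those groups were separate and the male libraries lay close together (log2 fold change -0.37, limma adjusted p = 0.0011, SE 0.07). Nusap1, a microtubule-bundling protein, fell by 0.40 (limma adjusted p = 0.00167), and Kif2c, a kinesin that takes microtubule ends apart, fell by 0.35 (limma adjusted p = 0.00783). Hmmr, a spindle and hyaluronan-binding protein, was lower by 0.26 on the log2 scale (limma adjusted p = 0.0269) and lost its call without male replicate 5 (-0.21), male replicate 6 (-0.25), female replicate 4 (-0.18) or female replicate 5 (-0.28), and with quantile scaling (-0.21). With the coding length and GC trend removed Hmmr was at -0.47 and was called (limma adjusted p = 0.000857). Kif11, the motor that separates the spindle poles, was at 94.8, 86.9 and 83.7 against 85.4, 89.4 and 99.3, a difference of 0.05 (SE 0.08) that became -0.02 without female replicate 6. Kif4, a chromosome-bound kinesin, was at 64.4 ± 3.01 against 65.7 ± 6.32 (SD, n = 3), and its difference of 0.02 became -0.03 without female replicate 6.

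Of 6 cytokinesis genes, 3 (50%) were higher and 2 (33.3%) were lower, against 34.6% each way over all genes tested. With the coding length and GC trend removed, only Kif23 of these 3 was still called higher. Anln, anillin of the contractile ring, was at 287, 253 and 250.2 in the male libraries and 289.6, 324 and 326 in the female libraries. The lowest female library was barely above the highest male library, and the change of 0.25 (limma adjusted p = 0.0188, SE 0.08) lost its call without male replicate 5 (0.22), male replicate 6 (0.21), female replicate 5 (0.22) or female replicate 6 (0.22), and with the trend removed (0.11). Kif23, the kinesin of centralspindlin, rose by 0.35 (limma adjusted p = 0.00285), whereas Racgap1, its partner in centralspindlin, was at 103 ± 5.29 against 96.6 ± 4.56 (SD, n = 3) and was not called. Ect2, the exchange factor that centralspindlin recruits, rose by 0.35 (limma adjusted p = 0.0099), but was at 0.05 and not called with the trend removed (limma adjusted p = 0.607). Kif20a, a central spindle kinesin, fell from 173, 169.9 and 170.03 to 116, 128 and 140.5 (log2 fold change -0.42, limma adjusted p = 0.00121, SE 0.08). Prc1, which bundles the midzone microtubules, fell by 0.23 (limma adjusted p = 0.0148) and was not called without female replicate 4, at -0.17.

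Condensin subunits, which fold mitotic chromosomes, were called in both directions. Ncaph, the kleisin of condensin I, was at 97.0, 91.6 and 89.2 in the male libraries and 40.05, 44.2 and 45.7 in the female libraries. The female mean was 46.8% of the male mean, with the lowest adjusted p of the set (log2 fold change -1.08, limma adjusted p = 3.9e-06, SE 0.07). Ncapd2, also of condensin I, fell by 0.38 (limma adjusted p = 0.00594), whereas Ncapg of the same complex was higher by 0.27 (limma adjusted p = 0.0307) and lost its call without male replicate 6 (0.26), female replicate 5 (0.25) or female replicate 6 (0.22), and with the coding length and GC trend removed (-0.07).

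Smc4, an ATPase shared by both condensins, was at 169.7, 216 and 142 in the male libraries and 249, 283 and 309 in the female libraries. The groups were apart (log2 fold change 0.68, limma adjusted p = 0.00301, SE 0.15). Smc2, its ATPase partner, was at 78.3, 151 and 115 against 134, 147 and 153, so male replicate 5 stood inside the female range and male replicate 4 far below it. The difference of 0.38 (limma adjusted p = 0.12, SE 0.20) was not called in all libraries but was 0.60 and called without male replicate 5. With 1 library left out Smc2 ranged from 0.13 to 0.60. It was at 0.0038 and not called with the coding length and GC trend removed (limma adjusted p = 0.988).

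Mki67 and Top2a, both used as marks of cycling cells, were called in opposite directions. Mki67, which coats mitotic chromosomes, was at 232, 415 and 187 in the male libraries and 561, 623 and 668 in the female libraries, a log2 fold change of 1.23 (limma adjusted p = 0.00233, SE 0.25). All female libraries were above all male libraries, but male replicate 5 was 2.22 times male replicate 6. Top2a, the topoisomerase that untangles sister chromatids, was at 457, 438 and 444 against 307, 339 and 360.3. The groups were apart and the male libraries within 1.04 times of each other (log2 fold change -0.41, limma adjusted p = 0.000887, SE 0.07).

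**Figure D3:**
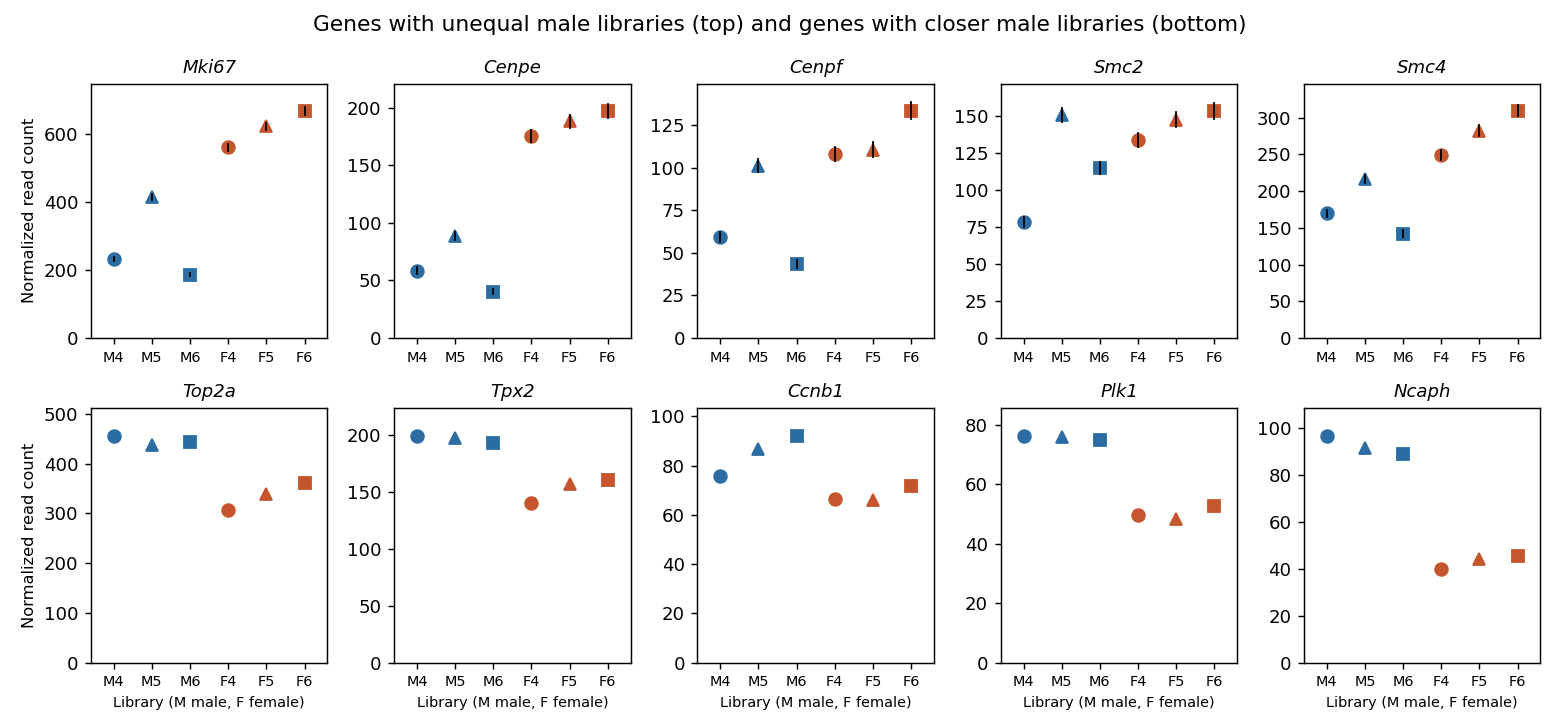
Normalized read count in each library for 5 genes with unequal male libraries (top) and 5 genes with closer male libraries (bottom), with each axis starting at 0; black bars in the top row are 95% exact Poisson intervals of the reads and cover counting error only. Male replicate 5 is highest of the male libraries in the whole top row, at 415 for Mki67 and 88.5 for Cenpe, and the lower row, such as Plk1 at 75.0 to 76.4, has no such step.

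Single libraries differed within the male group. The highest male library was at least 1.5 times the lowest for 6 members, and for none in the female group. Among all genes tested, 16.5% passed this ratio in the male group and 8.53% in the female group, so the members passed it no more often than other genes. The ratios were 2.34 for Cenpf, 2.22 for Mki67, 2.21 for Cenpe, 1.93 for Smc2, 1.68 for Ccnf and 1.52 for Smc4. Male replicate 5 was highest for 5 of these 6, and male replicate 4 for Ccnf. Over all genes tested, male replicate 5 was the highest male library for 27.3% and male replicate 4 for 40.2%.

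For Mki67 and Ccnf the steps were larger than counting error, the only error the intervals cover. For Mki67, the 95% exact Poisson interval was 407 to 423 in male replicate 5 and 182 to 192 in male replicate 6. For Ccnf it was 33.2 to 38.04 in male replicate 4 and 19.5 to 23.0 in male replicate 5. The shift was not one of all mitotic genes, since Plk1, Ttk, Kif20a and Top2a were within 1.04 times across the male libraries.

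In the female group the libraries had an order that most members shared. Female replicate 4 was the lowest female library for 37 of 45 members and the highest for 1, whereas over all genes tested it was the lowest for 37.7% and the highest for 31.7%. Female replicate 6 was the highest for 33 members, whereas it was the highest for 40% of all genes tested. The median member was at -0.31 log2 units relative to the male mean in female replicate 4, -0.20 in female replicate 5 and -0.14 in female replicate 6. Over all genes tested these medians were 0.01 in each female library.

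A total over the members depended on which of them were summed. The summed level of all 45 members was 4251, 4538 and 4061 in the male libraries and 4090, 4466 and 4720 in the female libraries, so the groups overlapped. The means were 4283 ± 240.0 and 4425 ± 317 (SD, n = 3), 103% of the male mean. Without the 6 members whose male libraries differed by at least 1.5 times, a choice made after seeing the data, the sums were 3557 ± 55.5 and 3053 ± 199, 85.8% of the male mean.

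The step from male replicate 6 up to male replicate 5 was most frequent among long genes low in GC. Mki67, Cenpf and Cenpe have coding sequences of 9531, 8991 and 7413 bases, the longest among the members, and GC contents of 46.6%, 43.3% and 42.9% in the same transcripts. Of 105 tested genes with a coding sequence of at least 6000 bases and a GC content under 47%, bounds chosen after seeing the data, 23.8% were at least 1.5 times higher in male replicate 5 than in male replicate 6, as were all 3 members in that class. In the 223 genes of that length with more GC the share was 0%, and their only member was Espl1, with 6354 coding bases. The share was 0.566% over all 12184 genes with these features. In the 3743 shorter genes with a GC content under 47% it was 0.989%, with 1 of 19 members, Smc4, passing. Smc2 was also in that shorter class, and the 2 genes have 3858 (Smc4) and 3573 (Smc2) coding bases. The median difference, male replicate 5 minus 6, was 0.17 log2 units in the class of 105 genes and -0.02 over all.

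The difference between male replicates 5 and 6 put Cenpf, Mki67 and Cenpe at the 99.97th, 99.96th and 99.95th percentiles of the 12184 tested genes with these features, and Smc4 and Smc2 at the 99.5th and 98.3rd. The same class of 105 genes had a median log2 fold change between the sexes of 0.62. With a trend on coding length and GC content removed from each library, also chosen after seeing the data, 23 members remained lower and 4 remained higher, while 35.1% of all genes tested were lower and 34.8% higher in that fit. Those still higher were Cenpe (1.2, limma adjusted p = 0.00132), Mki67 (0.79, limma adjusted p = 0.0213), Smc4 (0.32, limma adjusted p = 0.0419) and Kif23 (0.26, limma adjusted p = 0.00447). Cenpf (0.36), Mad2l1 (0.15), Bub1 (0.07), Ect2 (0.05), Anln (0.11), Espl1 (0.24) and Ncapg (-0.07) were not called. Kif11 was called lower after this removal, at -0.19 (limma adjusted p = 0.0219). The trend was fitted in each library without regard to sex, so its removal also takes away sex differences that go with length or GC. Whether a call lost in this fit came from the libraries or from sex cannot be told apart.

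**Figure D4:**
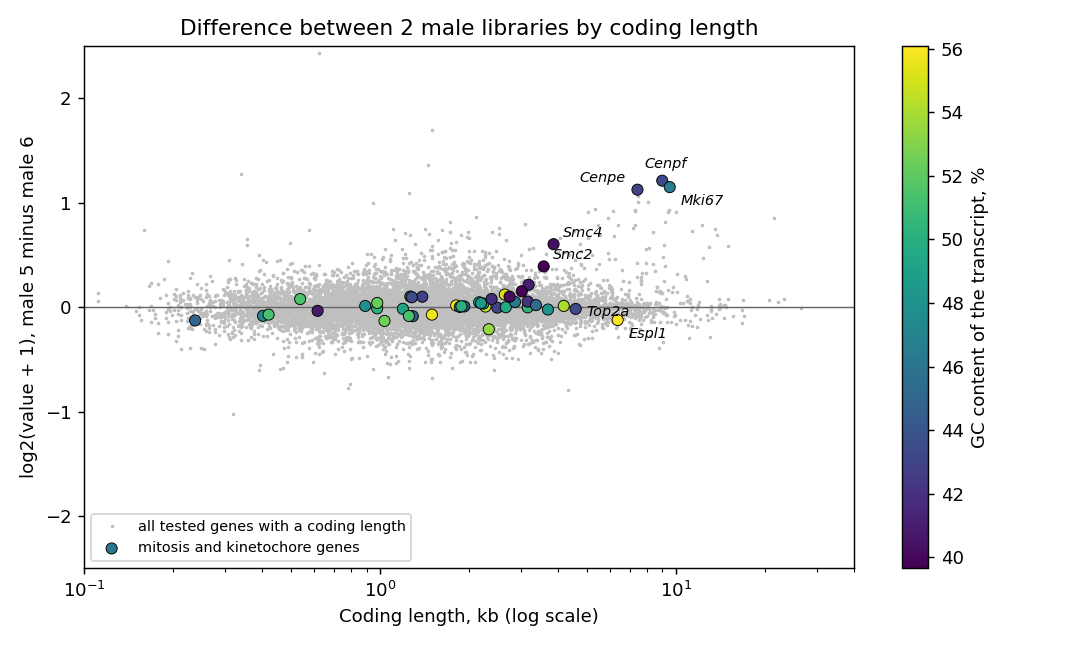
Difference between male replicates 5 and 6 on the log2(value + 1) scale against coding length in kb on a log axis, for 12184 tested genes (grey) and the 45 members (coloured by GC content of the transcript). Cenpf, Mki67 and Cenpe lie at the upper right, Smc4 and Smc2 are next, and Espl1, which is long but richer in GC, lies below 0.

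Other genes of the division machinery also moved both ways. Of 88 further mitosis genes tested, 28 (31.8%) were lower and 21 (23.9%) were higher, neither share above the 34.6% of all genes tested in each direction, with a median log2 fold change of -0.05. The largest decreases were in G2e3, a ubiquitin ligase of G2 and M phase, Cenpm, a subunit of the constitutive centromere network, and Cdc25b, a phosphatase that activates CDK1. G2e3 was at 219, 265 and 246 in the male libraries and 52.1, 60.8 and 63.2 in the female libraries (log2 fold change -2.04, limma adjusted p = 5.28e-07). Cenpm was at 15.7, 17.6 and 17.7 against 3.11, 2.92 and 4.51 (-2.01, limma adjusted p = 5.66e-06), and Cdc25b fell by 1.08. All 3 had separate groups.

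The largest increases among them were in Casc5, an older symbol of the kinetochore scaffold Knl1, Kif20b, a cytokinesis kinesin, and Depdc1a. Casc5 was at 15.5, 24.9 and 14.0 against 41.1, 44.3 and 49.2 (log2 fold change 1.30, limma adjusted p = 0.000349). Kif20b was at 18.6, 37.1 and 18.9 against 48.3, 48.7 and 57.5 (1.09, limma adjusted p = 0.00327). In both, male replicate 5 was again the highest male library. Depdc1a was at 20.4, 23.8 and 20.7 against 40.5, 46.9 and 49.5 (1.04, limma adjusted p = 2.88e-05), with less spread among male libraries. With the coding length and GC trend removed, Casc5, Kif20b and Depdc1a were still called higher, at 0.65, 0.59 and 0.46.

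Of 15 anaphase-promoting complex genes, 5 (33.3%) were lower and 3 (20%) were higher, against 34.6% each way over all genes tested, with a median of -0.13. Fzr1, the CDH1 activator that takes over from CDC20 late in mitosis, fell from 44.95, 45.3 and 45.5 to 25.7, 24.2 and 26.9 (-0.80, limma adjusted p = 1.75e-05). Cohesin genes, which hold sister chromatids together, were higher in 4 of 10 (40%) and lower in 2 (20%), with a median of 0.13. Nipbl, the cohesin loader, rose from 85.7, 128 and 77.1 to 202, 211 and 213 (1.13, limma adjusted p = 0.000321), with male replicate 5 the highest male library. Rad21, the cohesin kleisin that separase cuts, fell from 503, 389 and 393 to 253, 274 and 292 (-0.64, limma adjusted p = 0.000769). With the trend removed, Fzr1 was at -0.53 and Nipbl at 0.62, and both were still called, whereas 1 cohesin gene in all was called higher.

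Regulators of mitotic transcription included B-MYB and the NF-Y subunit Nfya among the genes that rose, while Foxm1, given above, was not called. In the list of E2F, DREAM and MYB genes, 13 of 23 (56.5%) were higher and 3 were lower, against 34.6% each way over all genes tested, with a median log2 fold change of 0.36. Mybl2, the B-MYB partner of MuvB, was at 16.4, 19.8 and 17.2 in the male libraries and 28.0, 29.4 and 27.8 in the female libraries (0.65, limma adjusted p = 0.000278). The MuvB subunits Lin9 and Lin54 rose by 0.48 and 0.36, values that became 0.32 and, not called, 0.13 with the trend removed. Nfya, the NF-Y subunit that reads CCAAT, rose by 0.94 (limma adjusted p = 5.68e-06). Mybl1, A-MYB, had the largest increase, from 8.71, 11.1 and 8.30 to 38.6, 37.8 and 38.6 (1.93, limma adjusted p = 1.67e-06). E2f7 and E2f8, repressors of S phase genes, rose by 1.25 and 0.96, and for E2f8 male replicate 4 was at 27.7 and male replicates 5 and 6 at 14.9 and 11.6. E2f1 fell by 0.60, or by 0.38 with the trend removed, and Rbl1, the pocket protein p107, fell by 0.51.

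Upstream, in G1 cyclins, CDKs and CDK inhibitors, 8 of 16 (50%) were higher and 6 (37.5%) were lower, against 34.6% each way, with a median of 0.47. Cdkn1b, the inhibitor p27, was at 288, 249 and 242 in the male libraries and 45.03, 50.7 and 55.8 in the female libraries. The female mean was 19.5% of the male mean (-2.34, limma adjusted p = 2.86e-07). Cdkn1a, p21, was at 881, 987 and 1016 against 458, 482 and 448 (-1.05, limma adjusted p = 4.58e-06), and Cdkn2d fell by 1.53. Cdkn2b, the inhibitor p15, was the contrary case, with an increase of 1.26 from 45.8, 27.0 and 25.8 to 83.2, 79.0 and 70.4. Ccnd1, cyclin D1, rose from 897, 898 and 904 to 1451, 1485 and 1452 (0.70, limma adjusted p = 1.3e-05), and Ccnd2 rose by 0.97.

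Replication genes, which act earlier in the cycle than mitosis, were higher in 14 of 38 (36.8%) and lower in 7 (18.4%), the first share being near the 34.6% of all genes tested, with a median of 0.08. Their summed level was 1656 ± 27.7 in the male libraries and 1808 ± 43.2 in the female libraries (SD, n = 3), 109% of the male mean. Rrm2, a ribonucleotide reductase subunit, rose from 71.8, 95.4 and 103 to 171, 177 and 167 (0.94, limma adjusted p = 0.000179). Cdc6, a licensing factor, fell from 56.9, 40.4 and 45.4 to 17.1, 14.7 and 14.1 (-1.57, limma adjusted p = 1.4e-05). For both genes the groups were separate.

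**Figure D5:**
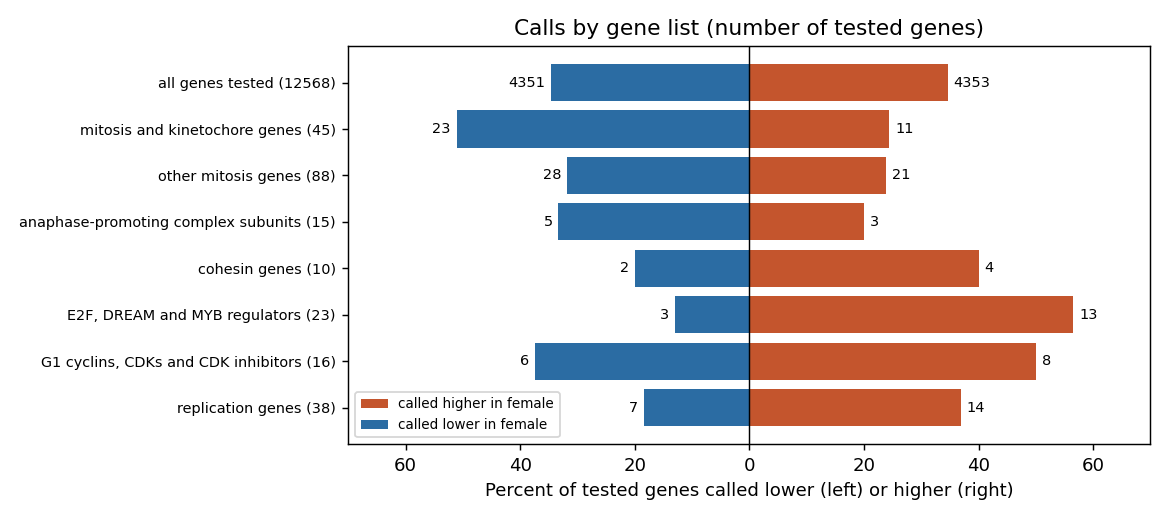
Percent of tested genes called lower (blue, left) and higher (orange, right) in the libraries labelled female, for all genes tested, the mitosis and kinetochore genes and 6 other lists; numbers at the bar ends are genes called and those in brackets are genes tested. The mitosis and kinetochore genes have 23 of 45 called lower, and the E2F, DREAM and MYB regulators 13 of 23 called higher.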

How the data were processed

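The series deposited 1 table of 13595 genes. The deposited values, a signal in units of normalized read count, were checked column by column. Divided by the column's smallest nonzero entry, 100% of the values in each of the 6 columns came out whole (tolerance 0.02), and these quotients served as recovered reads, on which edgeR called 8975 genes. Bowtie2, RSEM, edgeR and mm39 are named in the submitters' processing notes, with no versions or parameters. Per the file headers, a deposited score column holds a fold change (its size shows female against male, negative where lower), and 2 deposited p-value columns hold the authors' raw and adjusted values. All 6 library columns matched a sample by title.

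Sex was taken from the labels. Normalized values were tested as log2(value + 1) with limma 3.58.1 (eBayes with a trend) in R 4.3.3, female minus male, in the 12568 genes that reached 1 in 3 or more libraries. Benjamini-Hochberg adjustment ran over all of them, with a threshold of 0.05. This understates changes of low genes. The test was tried on simulated data first. Alternatives were a pseudocount of 0.1, other filters, RLE and quantile scaling, edgeR 4.0.16 and DESeq2 1.42.0 on recovered reads, a replicate block, each library left out in turn, and removal of a coding length and GC trend (GENCODE M21, features for 12184 genes). Genes given with all libraries were those with the 5 largest increases, decreases and ratios within a group, and a list covering each role; of other lists up to 3 per direction, or any regulator or CDK inhibitor. Of the list genes, 8 matched by an older symbol. Members and lists were chosen with earlier results of these data known. Genes sharing reads with paralogs or overlapping genes were not resolved, and strand was not stated.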

Additional observations from a re-analysis of the deposited data

How the results depend on the processing

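Over all alternatives, 0 members changed from one called direction to the other. The members called lower were between 21 and 24. The members called higher were 11 in the main fit, 12 with quantile scaling, 4 with the coding length and GC trend removed, and 7 to 11 with 1 library left out. Dropping the 6 members with unequal male libraries only recounts the main fit, with 7 of 39 higher. That lower count follows from the choice, since Cenpe, Cenpf, Mki67 and Smc4 were called higher. The members' median of -0.23 became -0.31 without those 6 members and was -0.27 to -0.17 with 1 library left out. Cohesin genes called higher went from 4 to 1 with the trend removed, and those called lower from 2 to 1 with quantile scaling and 1 to 3 with 1 library left out. Genes called over the whole table were 8704 in the main fit, 8975 with edgeR, 8874 with DESeq2 and 8314 with the replicate block. With the replicate block 10 members were higher and 23 lower. Deviations of same-numbered libraries correlated at -0.09, -0.03 and -0.17, so no shared shift was seen. These correlations cannot tell whether same-numbered libraries were paired, which the labels do not state. Values that changed sign, none called in the main fit except Ncapg, follow. With the trend removed, Ccnf was 0.0060, Incenp 0.037, Kif11 -0.19, Kif4 -0.079 and Ncapg -0.071. With 1 library left out, Ccnf ranged from -0.23 to 0.13, Bub3 from -0.011 to 0.086, Birc5 from -0.16 to 0.014, Kif11 from -0.015 to 0.096 and Kif4 from -0.031 to 0.10. Of 675 single values of members under alternatives, 631 kept direction and call. Cenpf was also not called by DESeq2 (adjusted p = 0.06). The cause of these changes was not tested. The lowest read count of a member in a library, 347, sets how far counting error limits its value.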
